A study of Mus musculus with 16 samples.

Results

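Hearts of Tbx5 CreERT2/+ mouse embryos at stage E10.5 were compared with hearts of wild-type (WT) embryos of the same age, to ask whether the CreERT2 allele of Tbx5 is silent by itself. The comparison rests on 4 Tbx5 CreERT2/+ libraries and 4 WT libraries of the 16 in the series, chosen by the genotype in the labels. The other 8 libraries are 4 from Tbx5 del/CreERT2 hearts and 4 from Tbx5 del/+ hearts of the same age, and they enter here only through the shared estimate of the spread and a few comparisons. RNA of whole hearts was taken up in Qiazol, purified with a miRNeasy micro kit and amplified with the Ovation RNA-seq system V2. The labels give the molecule as polyA RNA. Strain background, tamoxifen treatment, litter and the way the CreERT2 sequence was inserted are details the sources used here do not give. Nor do the labels say that each library is from its own embryo, so p-values measure the spread between these libraries, which may be technical in part.

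Tbx5 encodes a T-box transcription factor that binds DNA together with partners such as Nkx2-5 and Gata4 and is needed for atria, the conduction system and the forelimb. One functional copy too few causes Holt-Oram syndrome in people, and in mice Gja5 (connexin 40) and Nppa are known to fall when a copy is lost. CreERT2 is a Cre recombinase fused to a mutated estrogen receptor domain, which keeps it out of the nucleus until tamoxifen is given. An allele that carries it within a gene can lower that gene's output, alter neighbouring genes, or act through leaky recombinase.

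In the Tbx5 CreERT2/+ hearts 5 of 14612 tested genes were higher than in WT hearts at an adjusted p under 0.05, which is 0.0342% of the genes tested, and 0 were lower. The 5 genes were Kcna1, a potassium channel subunit, Otx1, a homeobox factor of the forebrain, Med18, a subunit of the Mediator complex, Tesc, a calcium-binding protein encoded near Tbx5, and Hist1h2ai, a replication-dependent histone. The lists of sarcomere, chamber and conduction genes held 0 genes past that threshold, and Tbx5 itself did not pass. Of 47 tested replication-dependent histones, 46 had an estimate above 0 and 1 passed. Their higher level was found in 3 of the 4 Tbx5 CreERT2/+ libraries and not in that of replicate 3. Summed over the list, every Tbx5 del/+ and Tbx5 del/CreERT2 library was above all WT libraries as well.

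Total counts ran from 21436305 to 33225108 in the Tbx5 CreERT2/+ libraries and from 27312006 to 42731841 in the WT libraries. Much of this was mitochondrial ribosomal RNA, which took 78.3%, 67.2%, 42.3% and 77.3% of the counts of Tbx5 CreERT2/+ 1 to 4, and 67.9%, 69.3%, 68.9% and 60.6% of those of WT 1 to 4. The counts outside it numbered 6611755 to 12361671 in Tbx5 CreERT2/+ and 10676538 to 13113302 in WT. Tbx5 CreERT2/+ 3 stood apart from all other libraries on the first principal component (82, against -34.2 to 56.2 in the other 15 libraries, where WT 4 was highest), so results that rest on it are given with and without it. Xist and the Y-linked Kdm5d each had high and near-zero libraries in both genotypes. Heart markers such as Tnnt2, Actc1, Myh6 and Ttn were abundant in all 8 libraries, and Nkx2-5 was present at 6.38 to 14.3 CPM. The neural crest factor Sox10 was at most 0.283 CPM in each. CPM here means counts relative to a library size scaled by TMM factors. With so much ribosomal RNA the CPM of a library do not add up to a fixed total. In bulk libraries, fewer cells of a type and less RNA per cell cannot be told apart.

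Tbx5 stood at 19.8, 18.1, 39.2 and 20.6 CPM in Tbx5 CreERT2/+ 1 to 4, and at 25.7, 17.4, 13.7 and 22.1 CPM in WT 1 to 4. The ranges overlap, and replicate 3 of Tbx5 CreERT2/+ is high. The means were 24.5 ± 9.91 CPM in Tbx5 CreERT2/+ and 19.7 ± 5.24 CPM in WT (SD, n = 4 each). Their difference of 0.26 in log2(CPM + 1) gave p = 0.486 in a two-sided exact permutation test, where the smallest p possible is 0.0286. In edgeR's quasi-likelihood fit the log2 fold change was 0.31 ± 0.25 (SE; 95% interval -0.20 to 0.83; adjusted p = 1), and -0.01 without Tbx5 CreERT2/+ 3. Reads were counted over the whole gene at chromosome 5, 120284672 to 120335227 (mm9), on the plus strand. Such counts cannot tell the CreERT2 allele from the intact one, and no count of Cre reads was used.

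Kcna1, which encodes the pore-forming Kv1.1 subunit of voltage-gated potassium channels and is best known from neurons, showed the lowest p of all tested genes. It lies on chromosome 6 from 126586481 to 126595819 (mm9). Its level was 26.3, 29.2, 13 and 25.8 CPM in Tbx5 CreERT2/+ hearts, against 1.22, 0.695, 0.721 and 0.763 CPM in WT hearts. The groups are far apart, although Tbx5 CreERT2/+ 3 has the lowest value of its group. The means of 23.6 ± 7.23 CPM in Tbx5 CreERT2/+ and 0.851 ± 0.251 CPM in WT (SD, n = 4 each) correspond to a log2 fold change of 4.79 ± 0.35 (SE), or 27.7-fold, with an edgeR adjusted p of 5.93e-08. Among the other Kcna subunits that could be tested, Kcna4 had a log2 fold change of 0.29 ± 0.42 and Kcna5 of 0.21 ± 0.38 (SE; edgeR adjusted p = 1 for both).

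Otx1, an orthodenticle homeobox factor that patterns the forebrain and sense organs, was low in absolute terms and was 13.8-fold higher in Tbx5 CreERT2/+. Tbx5 CreERT2/+ hearts had 2.72, 1.88, 2.6 and 2.3 CPM, and WT hearts had 0.204, 0.18, 0.107 and 0.184 CPM. The groups do not overlap, and replicate 3 is in the middle of the Tbx5 CreERT2/+ values. The log2 fold change was 3.79 ± 0.39 (SE; edgeR adjusted p = 1.45e-05). The gene is on chromosome 11 from 21894767 to 21902900 (mm9). Its paralog Otx2 was at most 0.359 CPM in the 8 libraries and was not tested. Of the 11 forebrain homeobox genes listed, 3 passed the filter on low counts, and besides Otx1 these were Nkx2-1 with a log2 fold change of -1.51 ± 0.86 and Lhx2 with 1.57 ± 1.12 (SE; edgeR adjusted p = 1 for both).

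Med18 encodes a subunit of the head module of Mediator, the complex that links transcription factors to RNA polymerase II. It stood at 8.58, 9.82, 5.28 and 9.53 CPM in Tbx5 CreERT2/+ hearts, against 2.1, 1.23, 1.66 and 2.21 CPM in WT hearts, with no overlap. The log2 fold change was 2.20 ± 0.28 (SE), or 4.59-fold, with an edgeR adjusted p of 0.000333. The gene is on chromosome 4 from 132014646 to 132019836 (mm9). Of the 29 Mediator subunits tested, Med18 was the 1 past the threshold, and the median log2 fold change of the 29 was -0.01, beside 0.01 over all tested genes. Med30 came next at 0.68 ± 0.31 (SE; edgeR adjusted p = 1).

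Tesc encodes tescalcin, a calcium-binding protein of the EF-hand family. It lies on chromosome 5 from 118477752 to 118511887 (mm9). Its level was 2.93, 3.23, 2.14 and 3.64 CPM in Tbx5 CreERT2/+ hearts, against 0.758, 0.875, 1.31 and 0.736 CPM in WT hearts. No library of one group enters the range of the other. The log2 fold change was 1.68 ± 0.29 (SE; edgeR adjusted p = 0.0256). The call is close to the threshold: Tesc had an edgeR adjusted p between 0.0904 and 0.208 when any 1 of Tbx5 CreERT2/+ 1, 2 or 4 or of WT 1, 2 or 4 was left out, 0.273 when only the CreERT2/+ and WT libraries were fitted, and 0.15 by limma-voom.

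Hist1h2ai encodes a histone H2A of the large cluster on chromosome 13 (21808281 to 21809321, mm9). It stood at 8.32, 7.51, 1.91 and 11.3 CPM in Tbx5 CreERT2/+ hearts and at 1.31, 1.54, 2.14 and 1.29 CPM in WT hearts. Replicates 1, 2 and 4 lie above every WT library, and replicate 3 lies within the WT range. The log2 fold change was 2.19 ± 0.38 (SE; edgeR adjusted p = 0.03). Genes of this cluster are near-identical copies, so reads that match several of them may be lost or split among them. This call too was lost when any 1 of Tbx5 CreERT2/+ 1, 2 or 4 or of WT 1, 2 or 4 was left out (edgeR adjusted p between 0.127 and 0.227), while without Tbx5 CreERT2/+ 3 it stood at 1.28e-05. With only the CreERT2/+ and WT libraries fitted it was 0.273, and by limma-voom 0.775.

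**Figure D1:**
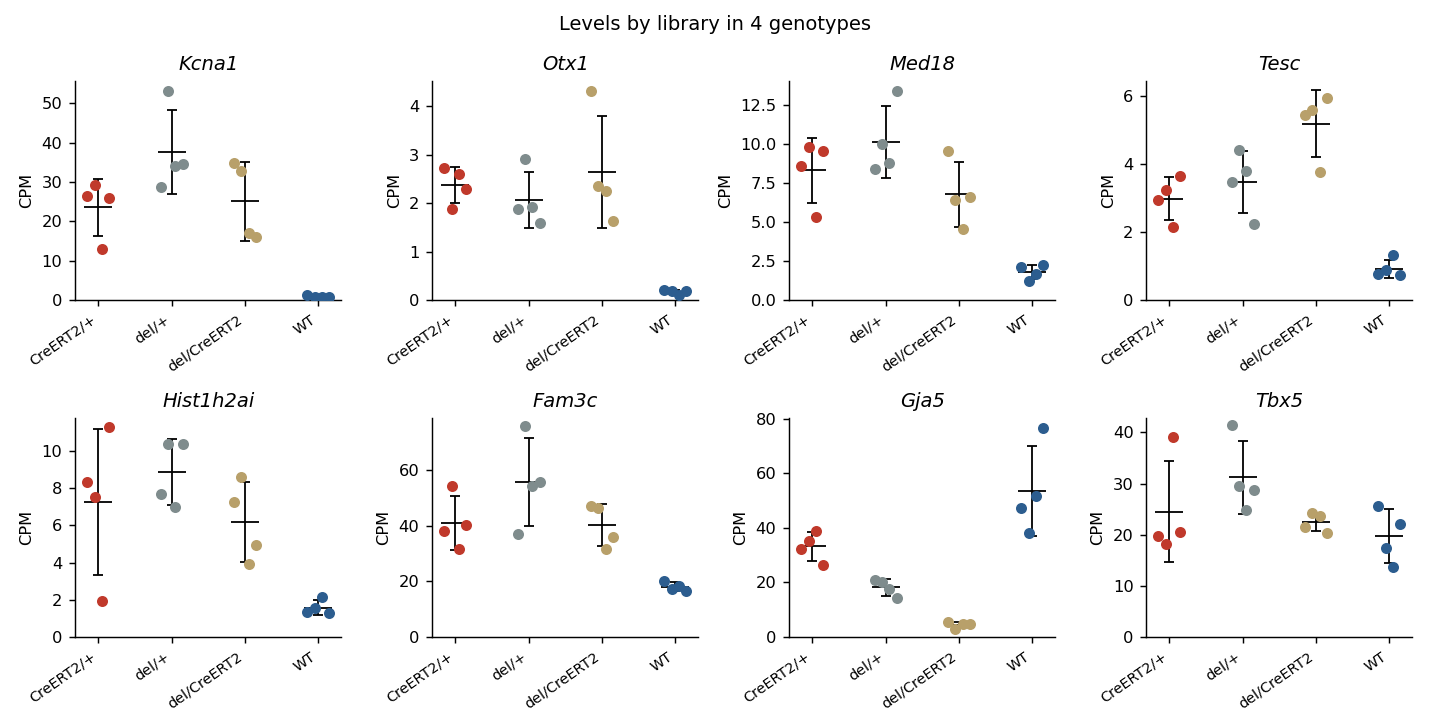
Level of 8 genes in each library of 4 genotypes, in CPM on a linear axis that starts at 0, with points for libraries and bars for the mean ± SD over 4 libraries. Kcna1, Otx1, Med18 and Tesc are above the WT range in every CreERT2/+ library, Hist1h2ai is so in 3 of 4, and the Gja5 and Tbx5 ranges overlap between CreERT2/+ and WT.

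Promoter sequences were found in RefSeq (build GRCm38.p6) for 2 of the 5 genes, Med18 and Tesc, and are shown because these genes differed together in hearts with an altered T-box factor gene. Each run has 300 bases around the annotated start of transcription, 5′ to 3′ on the strand of the gene. The Med18 run is chr4:132463872-132464171 on the minus strand and the Tesc run is chr5:118027493-118027792 on the plus strand.
Med18: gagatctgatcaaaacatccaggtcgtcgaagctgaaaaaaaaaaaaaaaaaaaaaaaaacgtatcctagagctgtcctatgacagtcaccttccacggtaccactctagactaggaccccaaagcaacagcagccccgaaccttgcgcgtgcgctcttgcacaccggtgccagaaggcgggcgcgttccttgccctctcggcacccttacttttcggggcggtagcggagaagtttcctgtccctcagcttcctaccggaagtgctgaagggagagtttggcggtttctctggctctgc
Tesc: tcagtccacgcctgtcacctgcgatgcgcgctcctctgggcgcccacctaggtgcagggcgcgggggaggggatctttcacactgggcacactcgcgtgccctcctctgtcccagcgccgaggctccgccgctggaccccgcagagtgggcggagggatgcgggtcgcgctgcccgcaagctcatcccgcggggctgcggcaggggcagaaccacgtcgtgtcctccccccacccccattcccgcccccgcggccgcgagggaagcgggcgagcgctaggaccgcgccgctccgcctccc
The T-box motif AGGTGTGA and its shorter core AGGTGT, which lies within it, were searched on both strands. Neither run holds either one, so no letters are set in capitals. Of 32851 mouse promoters of the same length, 1.28% hold the longer motif and 13.7% the core. A match or its lack in these windows says nothing of binding by Tbx5.

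The same 5 genes were then read in the other 2 altered genotypes, which share the WT libraries with this comparison. Kcna1 averaged 25.1 ± 10 CPM in Tbx5 del/CreERT2 hearts and 37.6 ± 10.6 CPM in Tbx5 del/+ hearts (SD, n = 4 each), with log2 fold changes over WT of 4.88 ± 0.35 and 5.46 ± 0.36 (SE). Otx1 had 3.92 ± 0.39 in Tbx5 del/CreERT2 and 3.59 ± 0.39 in Tbx5 del/+ on the same scale. Med18 had 1.90 ± 0.27 in Tbx5 del/CreERT2 and 2.49 ± 0.28 in Tbx5 del/+. Tesc had 2.48 ± 0.29 and Hist1h2ai 1.97 ± 0.38 in Tbx5 del/CreERT2, against WT. In Tbx5 del/+ they had 1.91 ± 0.29 and 2.50 ± 0.39. All 10 of these contrasts passed edgeR's threshold (largest adjusted p = 0.0207, Hist1h2ai in Tbx5 del/CreERT2). The WT libraries are thus the low group for these genes in 3 contrasts, which are not independent of each other.

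Below the threshold, the genes with the lowest p on the higher side included Fam3c, which encodes a secreted cytokine-like protein. It stood at 38, 54.3, 31.4 and 40.1 CPM in Tbx5 CreERT2/+ and at 20.1, 17, 18.1 and 16.5 CPM in WT, with no overlap and a log2 fold change of 1.19 ± 0.22 (SE; edgeR adjusted p = 0.0562). Unc5d, a netrin receptor of the UNC5 family, averaged 3.30 ± 1.18 CPM in Tbx5 CreERT2/+ and 0.329 ± 0.15 CPM in WT (SD, n = 4 each). Its log2 fold change was 3.29 ± 0.64 (SE), with an adjusted p of 0.0638 by edgeR, 0.0039 by DESeq2 and 0.995 by limma-voom. Tnfrsf26, a receptor of the tumor necrosis factor receptor superfamily, had a log2 fold change of 2.13 ± 0.43 (SE) at a level of at most 1.91 CPM. Ttyh2, a membrane protein of the tweety family, had 0.94 ± 0.21. These 4 genes did not overlap between the groups, which held for 154 genes on the higher side (1.05% of those tested) and 88 on the lower side (0.602%).

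On the lower side edgeR called 0 genes, with 185 at an unadjusted p under 0.05 (1.27% of those tested), against 357 on the higher side (2.44%). DESeq2 called 0 lower and 21 higher genes (0.144%), and limma-voom 0 lower and 4 higher (0.0274%). Gja5, which encodes connexin 40 of atrial and fast-conducting myocytes, was measured at 32.3, 35.1, 38.9 and 26.5 CPM in Tbx5 CreERT2/+ hearts and at 47.3, 38, 51.6 and 76.7 CPM in WT hearts. The ranges meet, since Tbx5 CreERT2/+ 3 lies just above WT 2. The log2 fold change was -0.69 ± 0.23 (SE; 95% interval -1.16 to -0.21; unadjusted p = 0.00672; edgeR adjusted p = 1). Beside this, Gja5 had -3.61 ± 0.26 in Tbx5 del/CreERT2 and -1.56 ± 0.23 in Tbx5 del/+, over the same WT libraries.

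Other genes of low p on the lower side were Fig4, a phosphoinositide phosphatase (7.60 ± 1.18 CPM in Tbx5 CreERT2/+ and 11.5 ± 1.16 CPM in WT, SD, n = 4 each; log2 fold change -0.60 ± 0.18, SE). G3bp2, an RNA-binding protein of stress granules, averaged 27 ± 5.43 CPM in Tbx5 CreERT2/+ and 39.2 ± 2.73 CPM in WT (log2 fold change -0.54 ± 0.18, SE). Actl6a, a subunit of BAF chromatin remodellers, had -0.70 ± 0.23 (SE). None of these 3 passed edgeR's threshold. The largest negative estimate, for Prap1 (-6.28 ± 1.58, SE; edgeR adjusted p = 0.433), rests on WT 2 alone, which had 20.5 CPM while the other WT libraries had at most 0.671 CPM and the Tbx5 CreERT2/+ libraries at most 0.106 CPM. The transporter gene Abcb1b was highest in WT 2 too (3.4 CPM), but every WT library (0.694 CPM or more) was above every Tbx5 CreERT2/+ library (at most 0.532 CPM). Its log2 fold change was -2.08 ± 0.53 (SE; edgeR unadjusted p = 0.00081, adjusted p = 0.439). BC053393 was also low without overlap, at most 0.41 CPM in Tbx5 CreERT2/+ and 1.03 to 1.39 CPM in WT (-2.51 ± 0.75, SE; edgeR adjusted p = 0.885).

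**Figure D2:**
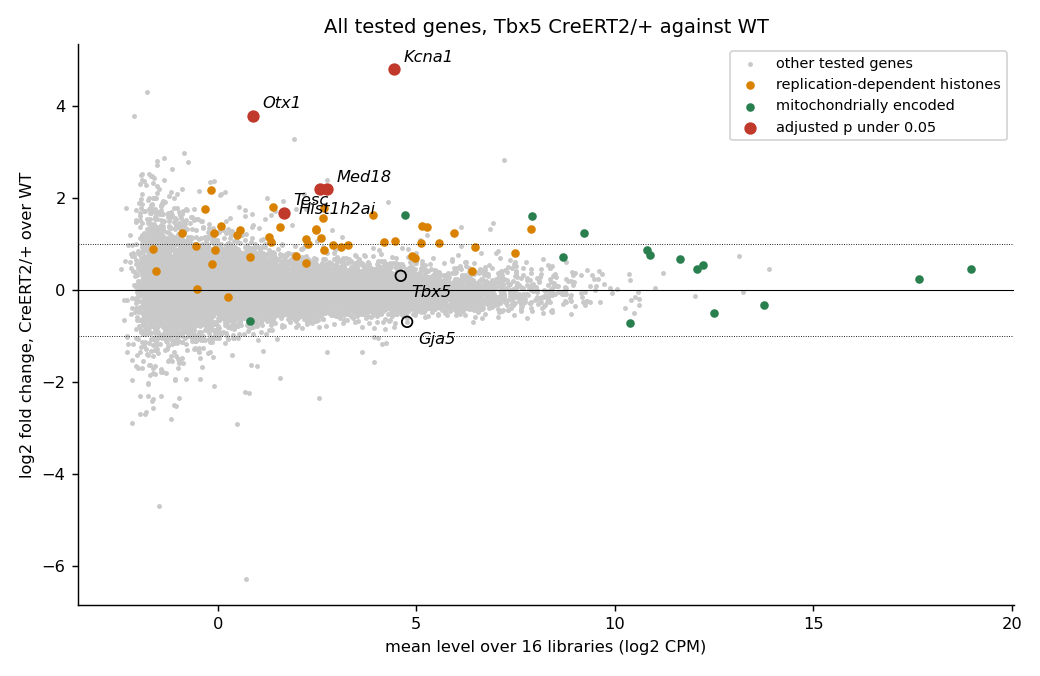
Log2 fold change of CreERT2/+ over WT (vertical axis) against mean level in log2 CPM (horizontal axis) for all 14612 tested genes, with dotted lines at a 2-fold change. The 5 genes past the threshold are all on the higher side, the histone list (orange) stands mostly above 0, and Tbx5 and Gja5 (circles) lie within the 2-fold lines.

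How large a change each gene leaves room for was read from the 95% interval of its log2 fold change. These intervals are not adjusted over all genes, so they do not give the smallest change that could be called. For 8895 of the 14612 genes (60.9%) the whole interval lay within a 2-fold change in either direction, and for 2260 (15.5%) within a 1.5-fold change. The share within a 2-fold change depended on level: with genes split by mean CPM into 3 bins of equal number, it was 91.7% in the highest bin, 79.8% in the middle bin and 11.1% in the lowest bin. The median interval reached 0.63 on the log2 scale to either side of the estimate. The intervals of most genes in the lowest bin thus reach beyond a 2-fold change. The interval for Gja5 extends beyond a 2-fold decrease, while that for Tbx5 does not reach a 2-fold change.

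Among 21 tested genes reported to respond to Tbx5 in the heart, 0 passed edgeR's threshold. The median log2 fold change was 0.15, beside 0.01 over all tested genes, and 12 of the 21 intervals lay within a 2-fold change. At an unadjusted p under 0.05, 3 members were lower and 0 higher: Gja5 as above, Bmp10, a growth factor of trabecular myocardium (-0.56 ± 0.24, SE), and Hand1, a basic helix-loop-helix factor of the left ventricle (-0.51 ± 0.24). The list's share lower (3 of 21) stands beside 1.27% of all tested genes. Pln, which encodes phospholamban, the inhibitor of the sarcoplasmic calcium pump, had 0.46 ± 0.28. Nppa, the atrial natriuretic peptide gene, averaged 58.8 CPM in Tbx5 CreERT2/+ and 44.4 CPM in WT, with a log2 fold change of 0.41 ± 0.34 and an interval from -0.30 to 1.11.

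Of 5 tested T-box relatives of Tbx5, 0 were called. Tbx3, its neighbour on chromosome 5 and a repressor in the conduction system, had a log2 fold change of 0.36 ± 0.29, and Tbx20, a chamber factor, had 0.25 ± 0.28 (SE; edgeR adjusted p = 1 for both). Intervals of all 5 T-box genes tested lay within a 2-fold change. Of 22 other core cardiac transcription factors, 0 passed, with a median of 0.19. Hand2, a basic helix-loop-helix factor of the right ventricle, had the lowest p among them, at 25.5, 15.1, 18.3 and 23.7 CPM in Tbx5 CreERT2/+ and 15.9, 7.38, 13.1 and 11.6 CPM in WT. Its groups overlap through WT 1, and its log2 fold change was 0.78 ± 0.24 (SE; unadjusted p = 0.00375; edgeR adjusted p = 0.953).

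The chamber and muscle lists held 0 called genes. The 17 atrial and conduction genes had a median of 0.14, and Nr2f2, a nuclear receptor of atrial identity, had the largest estimate among them (1.00 ± 0.40, SE; edgeR adjusted p = 1). The 18 ventricular and trabecular genes had a median of 0.04, with 16 intervals within a 2-fold change. The 26 sarcomere genes had a median of -0.01, with 24 intervals within a 2-fold change. Myh7, the slow beta-myosin heavy chain, averaged 673 CPM in Tbx5 CreERT2/+ and 540 CPM in WT (log2 fold change 0.32 ± 0.24). Tpm2, beta-tropomyosin, was above the WT range in all 4 Tbx5 CreERT2/+ libraries by a small amount (28.4 ± 2.94 CPM, against 22 ± 2.81 CPM in WT, SD, n = 4 each; log2 fold change 0.37 ± 0.17, SE, edgeR adjusted p = 1). The 24 genes of ion channels and calcium handling had a median of 0.01 and 0 members at an unadjusted p under 0.05.

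Lists of other cell types of the heart also held 0 called genes. The medians were -0.02 for 16 genes of endocardium and endothelium, 0.03 for 16 of cushion and valve mesenchyme, -0.10 for 11 of the epicardium, 0.28 for 9 of the second heart field and Hedgehog signalling, and 0.22 for 9 of smooth muscle. Col1a1, the type I collagen chain of mesenchyme, had the lowest p among these lists, with 29.3 ± 10.1 CPM in Tbx5 CreERT2/+ and 15.8 ± 4.32 CPM in WT (SD, n = 4 each) and a log2 fold change of 0.89 ± 0.36 (SE; edgeR adjusted p = 1). Red blood cell genes varied between libraries within a genotype: their summed level was 5204, 4660, 1593 and 4915 CPM in Tbx5 CreERT2/+ and 3879, 6472, 4269 and 1554 CPM in WT. Tbx5 CreERT2/+ 3 and WT 4 are the low libraries of their groups. The median of the 15 erythroid genes was -0.07. Liver and endoderm genes summed to 2.31, 4.01, 2.56 and 19.7 CPM in Tbx5 CreERT2/+, and to 2.1, 3.34, 70.7 and 7.68 CPM in WT, where WT 3 is high. The median of the 11 tested was -0.76 and 0 were called.

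Lists that bear on a recombinase or its receptor domain gave 0 calls as well. The 19 p53 targets and DNA damage genes had a median of 0.04 and 0 members at an unadjusted p under 0.05. Cdkn1a, the p53-induced cell cycle inhibitor, averaged 10.4 CPM in Tbx5 CreERT2/+ and 8.02 CPM in WT (log2 fold change 0.38 ± 0.24, SE, interval -0.11 to 0.87). The 9 estrogen receptor targets had a median of 0.17 and the 14 immediate early and heat shock genes one of -0.03, with 0 members at an unadjusted p under 0.05 in each. The 13 genes of the integrated stress response had a median of -0.15. Of the 23 cell cycle genes, all 23 intervals lay within a 2-fold change, around a median of -0.07. Genes of glycolysis and hypoxia had 17 of 21 estimates below 0 and a median of -0.20, led by Pgk1, a glycolytic kinase (-0.50 ± 0.25, SE; edgeR adjusted p = 1), while the 21 nuclear genes of oxidative phosphorylation had a median of 0.00.

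**Figure D3:**
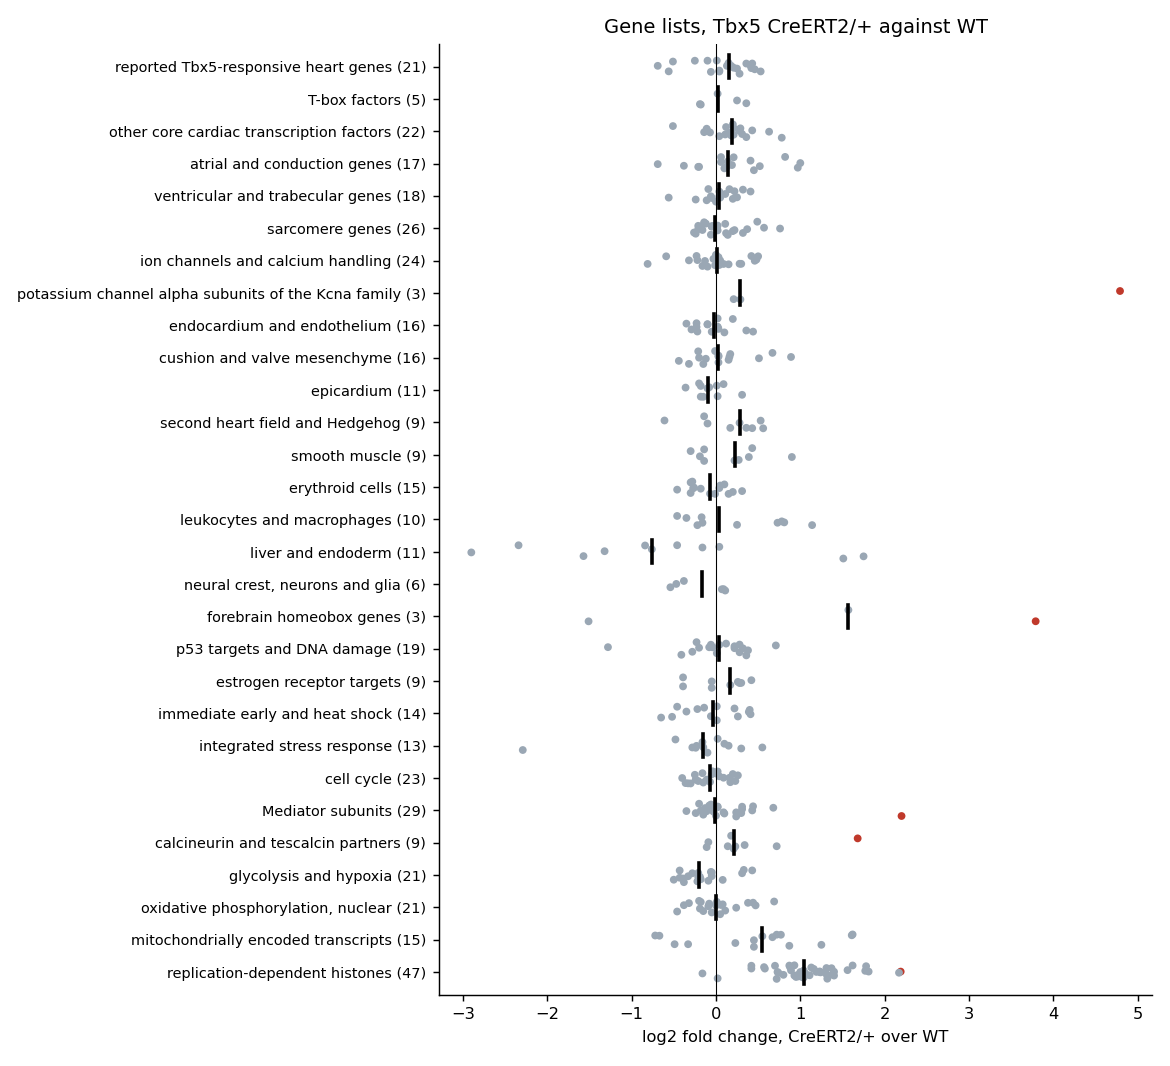
Log2 fold change of CreERT2/+ over WT for the tested members of each list, with the number tested in brackets, a black line at the median and red points past the threshold of an adjusted p under 0.05. Medians of the heart lists lie near 0, while that of the replication-dependent histones is 1.04.

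Replication-dependent histones, whose messenger RNAs end in a stem-loop in place of a poly(A) tail, stood apart from the other lists. Of 47 tested (57 listed), 46 had an estimate above 0, beside 7555 of all 14612 genes. The median log2 fold change was 1.04, and 31 were higher at an unadjusted p under 0.05, beside 2.44% of all tested genes, although 1 passed the adjusted threshold. Summed over the list, the level was 1368, 952, 327 and 2203 CPM in Tbx5 CreERT2/+ 1 to 4, against 675, 507, 785 and 432 CPM in WT 1 to 4. Replicate 3 has the lowest sum of all 8 libraries and the other 3 the highest. For that reason 0 of the 47 had groups that did not overlap. Hist1h4c, a histone H4, shows the pattern: it stood at 7.71, 6.52, 1.73 and 12.4 CPM in Tbx5 CreERT2/+ and at 1.84, 2.91, 2.06 and 1.37 CPM in WT (log2 fold change 1.78 ± 0.40, SE; edgeR adjusted p = 0.217). The histone list summed to 1195, 1026, 1277 and 1071 CPM in Tbx5 del/+ 1 to 4. In Tbx5 del/CreERT2 1 to 4 it summed to 1596, 1248, 796 and 1134 CPM. Each of these sums is above every WT sum, so the higher level is not particular to Tbx5 CreERT2/+.

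7SK is the noncoding RNA that keeps P-TEFb, an elongation kinase, in an inactive complex. Of 14 tested 7SK entries, the entry with the most counts, which held 90.1% of all 7SK counts, is the 7SK meant throughout. The other entries are not described here. This 7SK entry had 163, 150, 31 and 137 CPM in Tbx5 CreERT2/+ and 12.7, 29.6, 12.3 and 13.3 CPM in WT. The groups do not overlap, though replicate 3 and WT 2 nearly meet. Its log2 fold change was 2.82 ± 0.53 (SE; edgeR adjusted p = 0.0562), and it passed by DESeq2 (adjusted p = 0.00596) and limma-voom (adjusted p = 0.0471). 7SK was also above every WT library in all libraries of Tbx5 del/+ (174 to 691 CPM) and of Tbx5 del/CreERT2 (46.4 to 218 CPM). Scarna2, a guide RNA of Cajal bodies, had 1.93 ± 0.43, and snoZ40, a small nucleolar RNA, had 1.41 ± 0.28 (SE; edgeR adjusted p = 0.192 and 0.0845). Replicate 3 was the lowest Tbx5 CreERT2/+ library for Scarna2 but not for snoZ40. Among the 15 mitochondrially encoded transcripts the median was 0.55, and 4 were higher at an unadjusted p under 0.05. Of these, mt-Nd3, a subunit of respiratory complex I, had 373, 305, 66.5 and 639 CPM in Tbx5 CreERT2/+ and 79.4, 138, 116 and 118 CPM in WT, with replicate 3 again below every other library. With the share of mitochondrial ribosomal RNA as a covariate, 7SK had a log2 fold change of 2.77 ± 0.35 (SE, edgeR adjusted p = 5.45e-05). Hist1h4c had 1.67 ± 0.23 in that fit (SE, edgeR adjusted p = 0.000274). The part of this share and of other features of these libraries in the histone and 7SK values was not tested beyond that fit and those given next.

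Without Tbx5 CreERT2/+ 3, edgeR called 34 genes higher and 0 lower of 14867 tested (0.229%), among them the 5 genes called from all libraries. The 34 held 9 genes of the histone list, whose median was then 1.37 with 40 of 47 higher at an unadjusted p under 0.05 (4.41% of all genes in that fit), and 3 mitochondrial ones, mt-Nd3, mt-Atp8 and mt-Nd2. They also held 7SK, Scarna2, snoZ40, Fam3c, Unc5d, Tnfrsf26 and Ttyh2. Leaving out the 3 libraries lowest in mitochondrial ribosomal RNA (Tbx5 CreERT2/+ 3, Tbx5 del/CreERT2 3 and WT 4) gave 33 higher and 0 lower (0.23%). When the level of 7SK was added to the model as a covariate, 2 genes were called, Kcna1 and Otx1 (0.0137% of those tested). Med18 then had a log2 fold change of 1.61 (edgeR adjusted p = 0.135) and the histone median was 0.13. Since 7SK did not overlap between the genotypes, such a covariate also takes up part of the genotype difference.

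**Figure D4:**
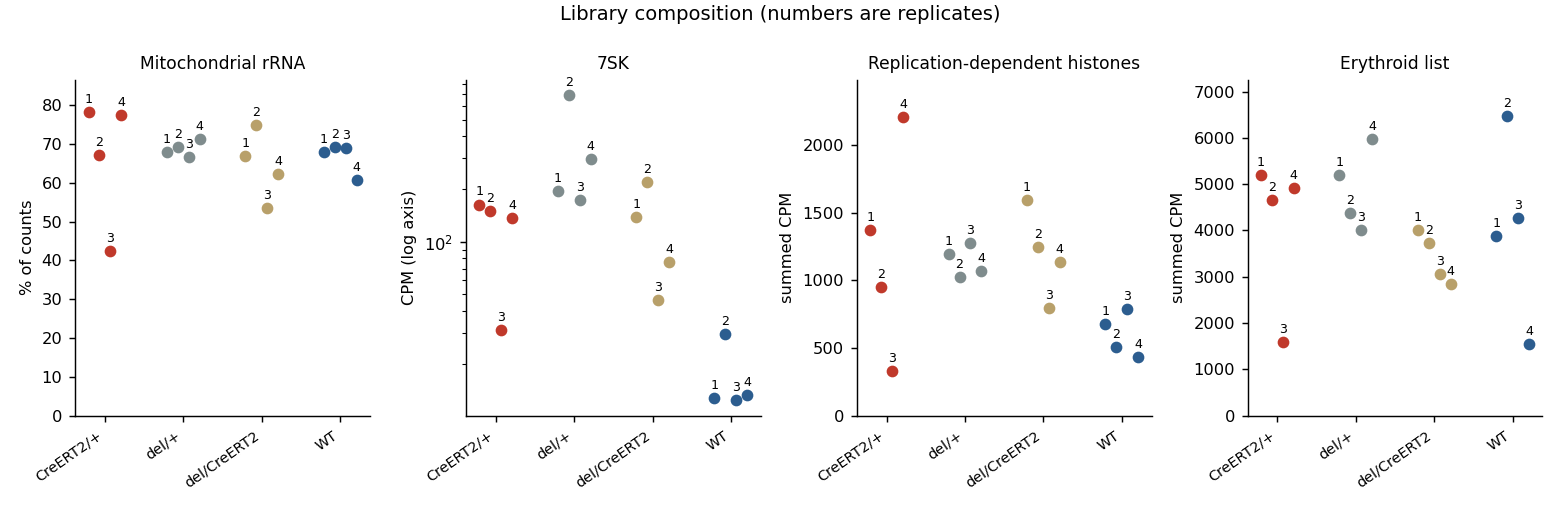
Share of counts from mitochondrial ribosomal RNA, level of 7SK (log axis), summed level of the histone list and summed level of the erythroid list in each library of 4 genotypes, with the replicate number beside each point. CreERT2/+ 3 is the lowest of the CreERT2/+ libraries in all 4 panels, and the other 3 CreERT2/+ libraries are above all WT libraries for 7SK and histones. Every del/+ and del/CreERT2 library is also above all WT libraries for 7SK and histones.

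Neighbours of Tbx5 were examined because an insertion can affect nearby genes. Within 5 Mb of the start of Tbx5, 243 genes are listed and 127 were tested. Tesc, 1.81 Mb before Tbx5, was the 1 called. The median of the 127 was 0.12, beside 0.01 for the 771 genes on the rest of chromosome 5, and without Tbx5 CreERT2/+ 3 it was -0.02. At an unadjusted p under 0.05, 4 of the 127 neighbours were higher and 1 lower, beside 2.44% and 1.27% of all tested genes. Of the 771 genes on the rest of chromosome 5, 17 were higher and 7 lower at that p. Besides Tesc, the higher neighbours included Gm17627, 3.21 Mb after Tbx5 (log2 fold change 1.84 ± 0.62, SE; edgeR unadjusted p = 0.00715). Gm17627 did not overlap between the groups but was low, with means of 0.43 CPM in Tbx5 CreERT2/+ and 0.12 CPM in WT. Cox6a1, a subunit of cytochrome oxidase, lies 4.49 Mb before Tbx5 (log2 fold change 0.69 ± 0.28, SE; edgeR adjusted p = 1). The nearest T-box gene, Tbx3, 0.16 Mb away, is given above.

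**Figure D5:**
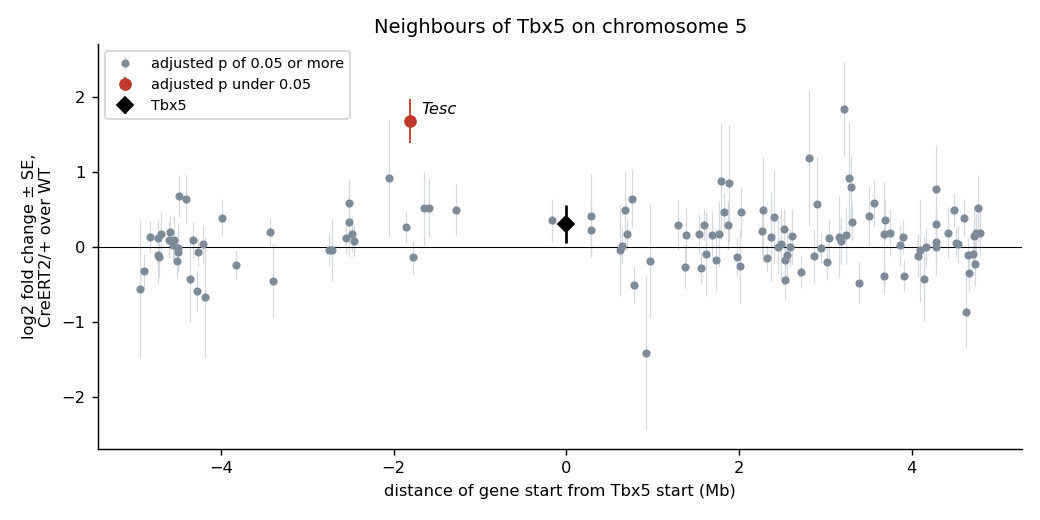
Log2 fold change ± SE of CreERT2/+ over WT for tested genes within 5 Mb of Tbx5 on chromosome 5, by distance of the gene start in Mb. Tesc at -1.81 Mb is the one gene past the threshold, and the other neighbours lie on both sides of 0; the diamond is Tbx5.

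Set directly against Tbx5 del/+ hearts, Tbx5 CreERT2/+ hearts had 0 called genes by edgeR, with 611 at an unadjusted p under 0.05 (4.18% of those tested). DESeq2 and limma-voom also called 0, with 691 (4.73%) and 527 (3.61%) at an unadjusted p under 0.05. Kcna1 had a log2 difference of -0.67 ± 0.29, Otx1 of 0.20 ± 0.32 and Med18 of -0.29 ± 0.26 (SE; edgeR adjusted p = 0.997 for each). Gja5 was at 33.2 ± 5.22 CPM in Tbx5 CreERT2/+ and 18.1 ± 3 CPM in Tbx5 del/+ (SD, n = 4 each), without overlap. The log2 difference was 0.87 ± 0.23 (SE; unadjusted p = 0.00106), which did not pass the adjustment over all genes (edgeR adjusted p = 0.997). Tbx5 itself averaged 24.5 ± 9.91 CPM in Tbx5 CreERT2/+ and 31.2 ± 7.18 CPM in Tbx5 del/+ (log2 difference -0.35 ± 0.25, SE).

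Whether the CreERT2 allele has the same effect beside the del allele as beside the WT allele was tested as an interaction, the difference Tbx5 del/CreERT2 minus Tbx5 del/+ less the difference Tbx5 CreERT2/+ minus WT. The interaction was negative for 6 genes and positive for 0 at an adjusted p under 0.05 (0.0411% of those tested). For Kcna1 it was -5.37 ± 0.45, for Otx1 -3.45 ± 0.50 and for Med18 -2.78 ± 0.38 on the log2 scale (SE; edgeR adjusted p = 7.12e-07, 0.00228 and 0.00117). All 3 were higher in Tbx5 CreERT2/+ than in WT. Between Tbx5 del/CreERT2 and Tbx5 del/+, Kcna1 averaged 25.1 and 37.6 CPM, and Otx1 averaged 2.64 and 2.07 CPM. For 7SK the interaction was -4.33 ± 0.73 and for Unc5d -4.55 ± 0.83 (SE; edgeR adjusted p = 0.0192 and 0.0446). Both calls depended on single libraries: 7SK had an edgeR adjusted p of 0.0515 to 0.106 without any 1 of WT 1, 3 or 4, Tbx5 CreERT2/+ 1 or 2, Tbx5 del/+ 2 or Tbx5 del/CreERT2 1 or 4. Unc5d had 0.0557 to 0.153 without any 1 of the WT libraries, Tbx5 CreERT2/+ 1, 2 or 4, Tbx5 del/+ 2 or 4, or Tbx5 del/CreERT2 2 or 4. Ap3b2, the neuronal beta subunit of the AP-3 coat, was of another kind: it averaged 0.244 ± 0.083 CPM in Tbx5 del/CreERT2, 4.74 ± 1.23 in Tbx5 CreERT2/+, 4.31 ± 1.01 in Tbx5 del/+ and 6.17 ± 1.36 CPM in WT (SD, n = 4 each), with an interaction of -3.68 ± 0.41 (SE; edgeR adjusted p = 8.13e-05). The WT libraries enter the interaction as well as the comparison with WT, so the 2 results are not independent.

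In the authors' deposited table, the comparison of these genotypes runs as WT over Tbx5 CreERT2/+, so that negative values mean a higher level in Tbx5 CreERT2/+. The authors' deposited table has 0 of 14820 genes at an FDR under 0.05 and 446 at a p under 0.05. The lowest FDR in the authors' deposited table is 0.0751, shared by Kcna1 (log2 fold change -4.78) and Otx1 (-3.77). Med18 (-2.20), Tesc (-1.68) and Hist1h2ai (-2.20) have FDR values of 0.504, 0.999 and 0.999 in the authors' deposited table.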

How the data were processed

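The authors deposited 1 table of 37991 genes. The submitters' processing notes name TopHat2, featureCounts, edgeR and mouse build mm9. The strand setting and versions were not given in the sources used here, so reads of overlapping or antisense genes cannot be told apart. The headers of the count columns carry the tag q30, which the sources used here do not explain, and no other filter was given. The values used are, per the file headers, raw non-normalized counts; the deposited values are whole numbers, not a model's expected counts. The authors' deposited comparison gives log2 fold changes and p-values, quoted only where the authors' table is named. A further 52 per-sample or mean columns and 2 unnamed columns were not used. Genes without a symbol (415) held no more than 0.117% of the counts in any library.

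Genes of low count were removed with edgeR's default filter over all 16 libraries. edgeR 4.0.16 (R 4.3.3) was then used with TMM factors and a quasi-likelihood fit of 1 mean per genotype, with 12 residual degrees of freedom. Adjusted p-values are Benjamini-Hochberg values over the 14612 tested genes, with a threshold of 0.05. DESeq2 1.42.0, limma-voom (limma 3.58.1), other filters and size factors, covariates, a replicate block and leaving out libraries were the alternatives. The libraries within Tbx5 CreERT2/+ and within WT differed beyond sampling noise (chi-square over degrees of freedom 25.4 to 719).

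The comparison, the 31 gene lists and the rule for named genes were chosen with earlier results of these data known. The rule names Tbx5, Gja5, the called genes, further genes of lowest p up to 12 per direction, the 2 members of lowest p per list and 3 neighbours. A few further list members, the genes called without Tbx5 CreERT2/+ 3 and the marker genes were named after their values were seen.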

Additional observations from a re-analysis of the deposited data

Results flagged for a closer look

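In groups of 4 libraries, a value was picked out when its gap to the nearest of the others took up most of the range; 158 groups of values were examined, and chance gives such a value in about 1 group in 20. Tbx5 was at 39.2 CPM in Tbx5 CreERT2/+ 3, where the others had 18.1 to 20.6 CPM. Rcan3, a calcineurin regulator, was at 5.71 CPM in the same library. Cacna1d, a calcium channel subunit, was at 9.96 CPM and Asns, asparagine synthetase, at 12 CPM in Tbx5 CreERT2/+ 2. The Y-linked Kdm5d was at 23.4 CPM in Tbx5 CreERT2/+ 1, and the lipoprotein gene Apob at 3.48 CPM in Tbx5 CreERT2/+ 4. Among WT libraries, Apob was at 29.6 CPM and Apoa1 at 4.78 CPM in WT 3, and Tnfrsf26 was low there at 0.134 CPM. WT 2 had 20.5 CPM of Prap1, 3.4 CPM of Abcb1b and 29.6 CPM of 7SK, and WT 1 had 1.22 CPM of Kcna1, all high for the group.

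The edgeR interaction test, the CreERT2 difference beside the del allele less that beside the WT allele, called 6 genes. Their log2 values were -5.37 for Kcna1, -3.45 for Otx1, -2.78 for Med18, -3.68 for Ap3b2, -4.33 for 7SK and -4.55 for Unc5d. Except for Ap3b2, these genes were above every WT library in all libraries of Tbx5 CreERT2/+, Tbx5 del/CreERT2 and Tbx5 del/+, which has no CreERT2. Their negative values thus go with low WT libraries, while Ap3b2 was low in Tbx5 del/CreERT2.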

How the results depend on the processing

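Against WT 5 genes were called; the number was 5 with RLE size factors, the robust fit, mitochondrial rRNA removed and the compared groups alone, 4 with limma-voom, a stricter filter or Xist as a covariate, 21 with DESeq2, 73 with no filter (55 higher, 18 lower), 25 with the mitochondrial rRNA share as a covariate, 33 without the 3 libraries low in it, 2 with 7SK as a covariate, and 3 to 34 with 1 library left out. Calls against Tbx5 del/+ numbered 36 with no filter, 0 otherwise, and 0 in each fit with 1 library left out. The 6 interaction calls were 17 with DESeq2, 73 with no filter, 16 with the mitochondrial share, 24 without the 3 libraries, 2 with 7SK, and 4 to 24 with 1 left out. The 60.9% of intervals within a 2-fold change was 33.3% with no filter, 18.7% with 7SK and 49.4% to 60% with 1 left out. The difference in Tbx5, 0.26, was 0.02 to 0.40 with 1 left out. Counts do not show the same genes: with the compared groups alone Tesc and Hist1h2ai (0.273 each) were lost and Unc5d (0.00938) and 7SK (0.0497) passed, and limma-voom shared 3 of the 5 and added 7SK (0.0471; all adjusted p). Causes were not tested.

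Between Tbx5 CreERT2/+ and WT libraries of equal replicate number, deviations from the genotype mean correlated at 0.008, 0.31, -0.325 and -0.29. Tbx5 CreERT2/+ 3 and WT 4, of unequal number, correlated at 0.481. These few values cannot show whether equal numbers share a litter or day. With the replicate block 5 genes were called, with Tesc at an edgeR adjusted p of 0.0688 and Hist1h2ai at 0.0885, while 7SK (0.00117) and Unc5d (0.0126) passed; the block gave 0 calls against Tbx5 del/+, 6 in the interaction, and p = 0.875 for Tbx5 (exact permutation within numbers). Kcna1 and Otx1 passed against WT in every setting in which they were tested, with adjusted p of at most 5.54e-06 and 0.0031.

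Of 2408 values for named genes, 2277 kept direction and side of the threshold, 48 fell below it, 67 newly passed and 16 changed sign. Those 16 were Tbx5 without Tbx5 CreERT2/+ 3 (-0.01; up to 0.45 with another library left out), and with 7SK as a covariate Kcne1 (-0.45), Pln (-0.48), Kcna4 (-0.35), Wnt2 (0.05), Actg2 (-0.03), Klf1 (-0.46), Apoa1 (0.11), Med30 (-0.70), mt-Atp8 (-0.03) and Ap3b2 (0.12). Actg2 was -0.02 without Tbx5 CreERT2/+ 1 (up to 1.18 without another), Apoa1 1.14 without WT 3 (down to -3.52 without another), Xist -0.04 and Kdm5d 0.05 without the 3 libraries, and Xist -0.00 with itself as a covariate. Depth limits genes of low level most.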

Other observations

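By chromosome, the share of tested genes at an unadjusted p under 0.05 was 7.81% on chromosome 13, which holds the large histone cluster, and 3.23% on chromosome 5, which holds Tbx5, beside 3.71% over all tested genes. On the mitochondrial chromosome it was 21.1% of 19 genes, all 4 of them higher in Tbx5 CreERT2/+. Genes of leukocytes and macrophages had a median log2 fold change of 0.04 over 10 tested, and those of neural crest, neurons and glia had -0.16 over 6 tested, with 0 called in either list by edgeR and 0 at an unadjusted p under 0.05.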
